A study of Mus musculus with 4 samples.

Results

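The loss of MG56, the product of the gene Hhatl, was followed in 2 striated muscles of the same genotypes, and for every gene the response of the tibialis anterior (TA), a limb muscle of the lower leg, was set against that of the heart. The response of a tissue is the log2 of the knockout signal over the wild-type signal, and the difference between the tissues is the TA value minus the heart value. A gene entered if a probe set annotated to it alone reached the median of all signals on at least 1 array of each tissue. This held for 10823 of the 18193 genes named on the array. The ratio itself was not used to choose them, but in 654 of them 1 of a tissue's 2 arrays alone reached this floor, so the array with the higher signal decided their entry and they had to differ. The 4 groups were MG56-knockout TA, wild-type TA, MG56-knockout heart and wild-type heart, all of C57BL/6J mice aged 9 days (postnatal day 9). RNA of 3 knockout mice was mixed, and wild-type RNA was mixed in the same way from a number of mice that the sources used here do not give. The labels describe the knockout as lacking MG56 and name no promoter or Cre. There was 1 array of pooled RNA per group, so no spread between mice can be computed, no difference below was tested, and a ratio compares pools.

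As background, Hhatl resembles the acyltransferase that lipidates hedgehog proteins and encodes a protein of the sarcoplasmic reticulum membrane. When unfolded proteins build up in the lumen of the endoplasmic reticulum (ER), the sensors Ire1, Perk and Atf6 switch on the unfolded protein response: Atf6 and Xbp1 drive chaperone genes, partly through ER stress elements in their promoters, and Perk acts through Atf4 on genes of amino acid supply, which is the integrated stress response. Muscle and heart of newborn mice also still hold dividing cells, whose cell cycle genes decline as the tissues mature.

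The tissues matched their labels. All 16 skeletal fibre markers were above the floor (the median of all signals, 101.3) on both TA arrays and 4 of 16 on each heart array, while all 16 cardiomyocyte markers were above it in heart. The summed signals of fibroblast, endothelial and leukocyte markers differed between knockout and wild type by factors of 0.896 to 1.04 in both tissues. Those of the neutrophil granule genes were 2.25 times the wild type in TA and 1.28 times in heart, from at most 3 of 11 genes above the floor. Those of the red blood cell genes were 0.671 times the wild type in TA and 0.758 times in heart, with the transferrin receptor gene Tfrc making up most of the sum. The part of these cells in the results was not tested. The Y-linked Uty, Eif2s3y and Kdm5d were at least 1.5-fold higher in both knockout tissues and Xist was 1.44-fold and 1.30-fold lower. The sex of the pooled mice is not stated, and the part of sex in the other results was not tested. Hhatl had a signal of 1078 in knockout and 5491 in wild-type TA (5.09-fold lower) and of 880 and 2110 in heart (2.40-fold lower). It was lower in both tissues, by log2 1.09 more in TA, and the sources used here do not say which exons were removed or whether its 1 probe set covers them.

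Most genes 2-fold lower in one tissue were at least 1.5-fold lower in the other too. Most genes 2-fold higher in TA did not reach 1.5-fold higher in heart. In knockout TA, 102 genes (0.942%) reached 2-fold higher and 99 (0.915%) 2-fold lower. In heart, 31 (0.286%) were higher and 133 (1.23%) lower. Of the 102 genes higher in TA, 70 had a heart log2 ratio within 0.32 of 0 (called near 0 from here on), 7 reached 1.5-fold higher there too, and the heart median was log2 0.07. Of the 99 genes lower in TA, 71 reached 1.5-fold lower in heart as well, with a median of -1.13 over the 99; 56 genes (0.517%) reached 2-fold lower in each tissue. Of the 133 genes lower in heart, 94 were at least 1.5-fold lower in TA. With 1.5-fold as the limit in both tissues, less was shared. Of 462 genes lower in TA and 446 lower in heart, 159 were lower in both. In heart, 193 of the 462 were near 0. Of 456 genes higher in TA, 34 were also higher in heart and 314 were near 0 there. As a baseline for the counts by sign below, 5323 of all 10823 genes were above 0 in TA and 5368 in heart. The TA ratio was above the heart ratio in 5416. Across all 10823 genes the log2 ratios of the tissues correlated at a Pearson r of 0.31 (Spearman 0.27). Over the 157 genes of cell division the r was 0.70. Over the 10666 genes outside the cell division lists it was 0.24 (Spearman 0.25). The 188 genes of ER protein handling, at 0.22 (Spearman 0.26), lay close to that value. These are correlations across genes that share the 4 arrays, and genes are not independent replicates.

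**Figure D1:**
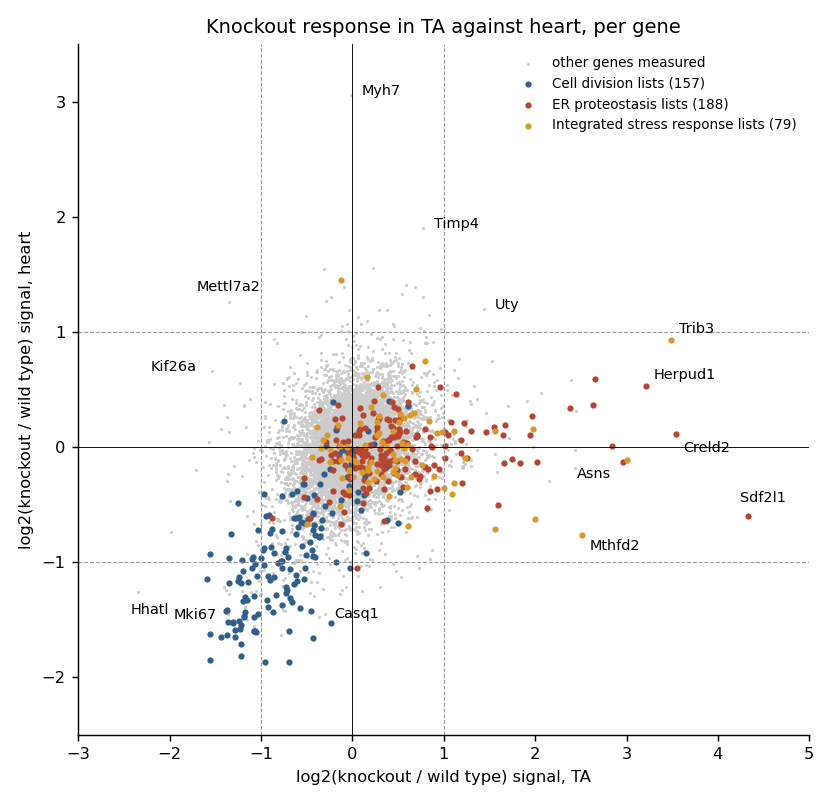
Each point is 1 of the 10823 genes, with its log2 ratio of knockout over wild-type signal in TA on the x axis and in heart on the y axis, 1 array per group; dashed lines mark 2-fold. The 188 genes of the ER protein handling lists and the 79 of the integrated stress response lists spread to the right along the x axis, the 157 cell division genes lie in the lower left where both tissues are lower, and Myh7 stands at the top with a log2 ratio of 3.05 in heart.

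Patterns were then set by size alone. A gene was counted as responding in one tissue if it reached 2-fold there and was near 0 in the other, as shared if it reached 1.5-fold the same way in both, and as opposite if it reached 1.5-fold in opposite directions. By these limits 70 genes (0.647%) were higher in TA with heart near 0, 17 (0.157%) lower in TA, 16 (0.148%) higher in heart and 18 (0.166%) lower in heart. A further 34 genes (0.314%) were higher in both, 159 (1.47%) lower in both, 15 (0.139%) higher in TA and lower in heart, and 10 (0.0924%) the reverse. Near 0 in both tissues were 6356 genes (58.7%), and the remaining 4128 (38.1%) met none of these limits. The make-up of the groups differed: 30 of the 70 genes higher in TA with heart near 0 (42.9%) belonged to the lists of ER protein handling or the integrated stress response and 0 to cell division, whereas of the 159 lower in both, 88 (55.3%) belonged to cell division and 1 to the ER lists. As background, the 10823 genes measured held 188 of ER protein handling, 79 of the integrated stress response and 157 of cell division. The difference itself reached 2-fold in 180 genes with TA above heart (1.66%) and in 90 with heart above TA (0.832%).

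**Figure D2:**
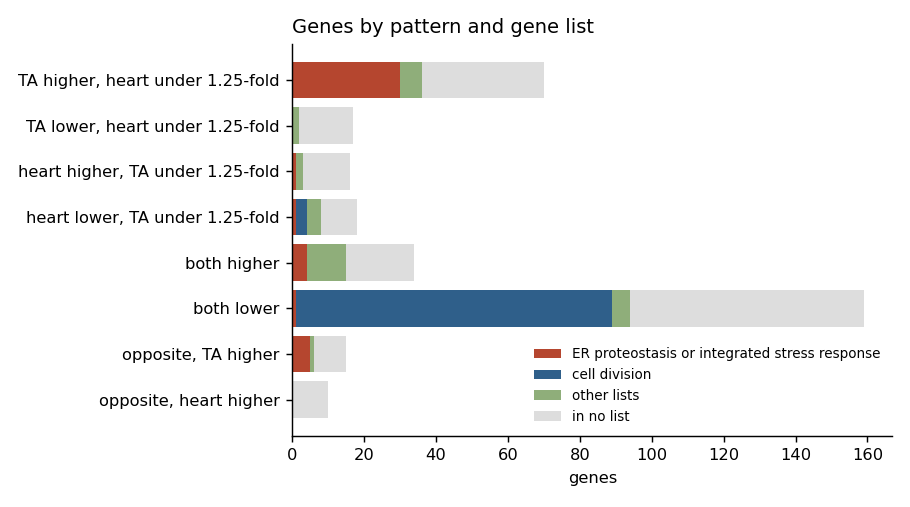
Bars count the genes of each pattern (x axis), split by the lists they belong to. The longest of these bars, 159 genes lower in both tissues, is mostly cell division (88), and the second, 70 genes higher in TA with heart near 0, holds 30 genes of ER protein handling or the integrated stress response. Among all 10823 genes measured, 157 were of cell division, 188 of ER protein handling and 79 of the integrated stress response.

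ER protein handling genes were higher in knockout TA far more often than in knockout heart. Of the 188 measured genes of its 7 lists, 56 (29.8%) were at least 1.5-fold higher in knockout TA against 4.21% of all genes, and 1 was lower (4.27% of all genes). In heart 2 of the 188 (1.06%) were higher against 2.52% of all genes, and 6 (3.19%) lower against 4.12%. The family's median was log2 0.35 for TA and log2 -0.05 for heart, beside -0.005 and -0.002 over all genes. Of the 56 genes higher in TA, 43 were near 0 in heart. The 70 genes higher in TA with heart near 0, of which 24 are in the ER lists, had a median wild-type signal of 456 in TA and 516 in heart.

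Chaperones and cochaperones of the ER were among the genes higher in TA. Sdf2l1, which works with the ER Hsp70 chaperone, had the largest difference of all genes, log2 4.92: its signal was 5368.5 in knockout and 268 in wild-type TA (20.03-fold higher) and 156 and 236.5 in heart (1.52-fold lower). Hspa5, the ER Hsp70 chaperone also called BiP, had 34481 and 8957 in TA (log2 1.94) and 13074 and 12185 in heart (0.10). Its heart signals were higher than that of wild-type TA, and the 4 values show knockout TA alone standing high. Hsp90b1, the ER Hsp90, had 24771 and 6956 in TA and 7492 and 8256 in heart, log2 1.83 and -0.14. The cochaperone Dnajc3 had 7973 and 1284 in TA and 1052 and 817 in heart, 6.21-fold and 1.29-fold higher; its 4 other probe sets gave log2 ratios of 0.86 to 1.76 in TA and -0.11 to 0.34 in heart. Of the 23 chaperones and cochaperones, 10 were at least 1.5-fold higher in TA and 1 in heart, beside 4.21% and 2.52% of all genes. The 1 in heart was Dnajb9, a cochaperone that was 6.28-fold higher in TA and 1.51-fold in heart. Creld2, an ER protein of stressed cells, had 5936.5 and 510 in TA (11.6-fold higher) and 646 and 598 in heart (1.08-fold). Manf, a secreted ER stress protein, had 17358 and 2418 in TA (7.18-fold) and 2398 and 2389 in heart (log2 0.01). For both, the heart arrays differed little from each other and from wild-type TA.

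**Figure D3:**
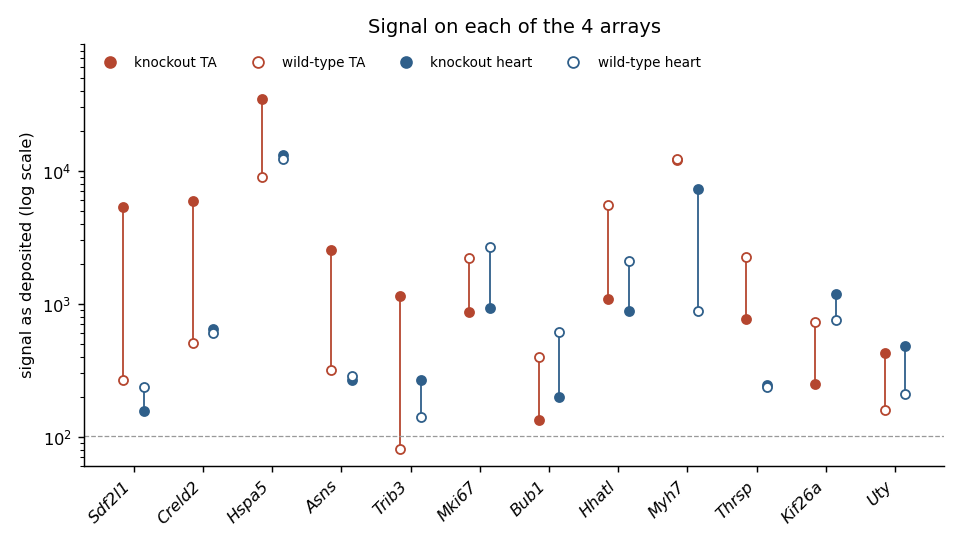
The y axis gives the deposited signal on a log scale for 12 genes on each of the 4 arrays; filled points are knockout, open points wild type, red TA and blue heart, and the dashed line is the floor of 101.3. Creld2, Hspa5 and Asns differ between genotypes in TA with nearly equal heart signals, Mki67, Bub1 and Hhatl are lower in both knockout tissues, and Myh7 differs in heart with equal TA signals.

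The promoters of these genes were read from RefSeq (build GRCm38.p6), as the 250 bases before each gene's start. A promoter was found for 8794 of the 10823 genes. The classical ER stress element was searched on either strand as CCAAT, then 9 bases of any kind, then CCACG. It contains the CCAAT box, a motif of its own that was present in 40.6% of the 8794 genes. It was present in 37 of all 32851 promoters (0.113%) and in 14 of the 8794 measured genes (0.159%). The set was thus defined by sequence and not by any signal of these arrays, though the motif was searched with the TA response already known. The element is also one known from promoters of ER chaperone genes, so the set is not independent of the ER lists. Of the 14 genes, 11 were at least 1.5-fold higher in knockout TA, beside 4.13% of the genes without the element, and 0 were in heart, beside 2.61%. Their medians were log2 1.75 in TA and log2 0.14 in heart, and the median difference was 1.58 beside 0.002. The 11 were Creld2, Dnajc3, Pdia6, Derl3, Hsp90b1, Hspa5, Ero1b, Syvn1, Calr, Alg12 and Canx, all of the ER lists, while Pan2 (log2 0.20 in TA and 0.16 in heart), Adcy3 (-0.40 and -0.29) and Acacb (0.03 and 0.23) did not differ by 1.5-fold in either tissue. Of the 60 promoters matched for the genes higher in TA with heart near 0, 8 (13.3%) held the element, and 0 of the 132 for the genes lower in both. The 250 bases of 4 of these genes, chosen after their values were seen, are printed 5' to 3' on the gene's strand, with the fixed letters of the element in capitals.
Creld2 (chr15:88819396-88819645, plus strand): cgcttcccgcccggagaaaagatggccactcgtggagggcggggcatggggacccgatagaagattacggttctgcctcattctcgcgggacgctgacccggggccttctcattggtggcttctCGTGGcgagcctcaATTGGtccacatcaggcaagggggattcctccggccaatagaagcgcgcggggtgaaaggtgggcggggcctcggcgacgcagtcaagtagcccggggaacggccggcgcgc
Hspa5 (chr2:34771840-34772089, plus strand): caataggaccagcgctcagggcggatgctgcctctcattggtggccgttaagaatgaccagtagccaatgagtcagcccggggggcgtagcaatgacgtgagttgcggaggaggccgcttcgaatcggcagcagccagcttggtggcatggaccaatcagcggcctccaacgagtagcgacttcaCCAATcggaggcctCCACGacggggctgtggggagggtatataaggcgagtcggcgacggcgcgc
Hsp90b1 (chr10:86705445-86705694, minus strand): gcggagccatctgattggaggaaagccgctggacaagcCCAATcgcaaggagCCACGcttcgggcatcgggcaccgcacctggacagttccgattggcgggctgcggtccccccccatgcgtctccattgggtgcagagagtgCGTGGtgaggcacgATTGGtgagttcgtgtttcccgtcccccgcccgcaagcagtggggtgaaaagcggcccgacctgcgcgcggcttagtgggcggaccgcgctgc
Dnajc3 (chr14:118937682-118937931, plus strand): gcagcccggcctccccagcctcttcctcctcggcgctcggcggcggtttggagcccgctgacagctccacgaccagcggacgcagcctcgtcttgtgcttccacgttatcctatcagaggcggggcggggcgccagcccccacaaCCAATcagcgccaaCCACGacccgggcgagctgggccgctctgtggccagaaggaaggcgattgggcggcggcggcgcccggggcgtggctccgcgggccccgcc
The element begins 65 bases before the start in Hspa5, 105 in Dnajc3 and 126 in Creld2, where it lies on the other strand, and Hsp90b1 holds 2 copies, 212 and 107 bases before it. A match describes letters and does not show binding.

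**Figure D4:**
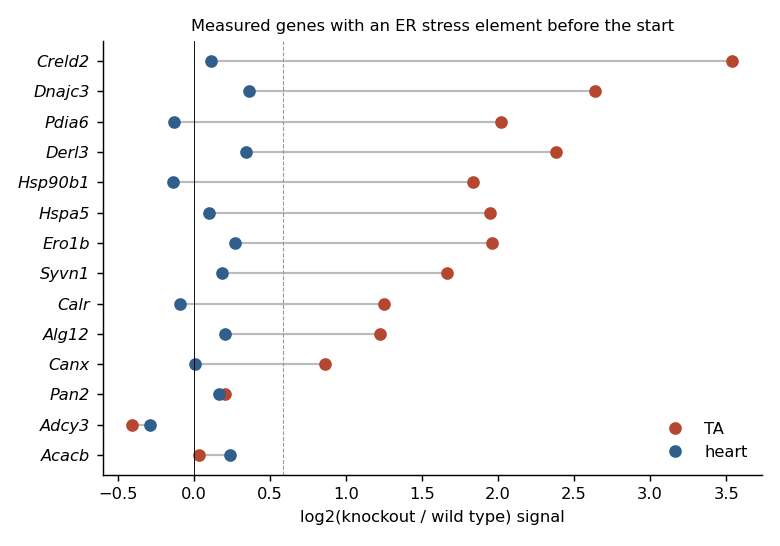
For each of the 14 measured genes with an ER stress element in the 250 bases before the start, the x axis gives the log2 ratio of knockout over wild-type signal in TA (red) and heart (blue); the dashed line marks 1.5-fold. In 11 genes the TA point lies beyond the line, and all 14 heart points lie short of it.

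The other ER lists also held genes higher in TA. Among all genes, 4.21% were at least 1.5-fold higher in TA and 2.52% in heart. In lists of this size, 0 or 1 gene higher in heart is therefore close to the share of all genes. Of 20 disulfide isomerases and ER oxidases, which form the disulfide bonds of secreted proteins, 6 were at least 1.5-fold higher in TA and 0 in heart. Pdia4 had 3674.5 and 470 in TA (7.82-fold) and 508 and 557 in heart, Pdia6 10008 and 2468 (4.06-fold) and 2232 and 2442, and the oxidase Ero1b 682 and 175 (log2 1.96) and 323.5 and 268 (0.27). Of 30 genes of ER-associated degradation, which draws misfolded proteins out for the proteasome, 9 were higher in TA and 0 in heart. Here the heart was above 0 in 21 of 30 genes, with a median of 0.10, the highest of the ER lists. Herpud1, an adaptor of that machinery, had 13623 and 1465 in TA (9.30-fold) and 3018.5 and 2095 in heart (1.44-fold), and its second probe set gave log2 3.54 and 0.38. Derl3, a channel subunit, had 1059 and 203 in TA (log2 2.38) and 143 and 113 in heart (0.34), and Syvn1, the ubiquitin ligase, log2 1.67 and 0.19. Of 53 genes of N-glycosylation and translocation, 16 were higher in TA and 1 in heart, the median being 0.35 and -0.09. Calr, a lectin chaperone that also binds calcium, had 15302 and 6428 in TA (2.38-fold higher) and 5178 and 5523 in heart (1.07-fold lower), and Sec11c, a signal peptidase subunit, 3348 and 1460 in TA (2.29-fold higher) and 1123 and 1398 in heart. Of 44 genes of ER-to-Golgi transport, 10 were higher in TA and 0 in heart, with medians of 0.37 and -0.07. Arfgap3, a regulator of coat disassembly, had 975.4 and 334 in TA (log2 1.54) and 348 and 308 in heart (0.18), and the coat subunit Sec24b 0.92 and -0.36. Of the 15 sensors and factors of the response, Xbp1 was 2.02-fold higher in TA and 1.09-fold in heart, and Atf6 2.19-fold and 1.37-fold. In TA 3 of the 15 (20%) were at least 1.5-fold higher and 1 lower. In heart 0 were higher and 3 (20%) lower, beside 4.12% of all genes lower there.

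**Figure D5:**
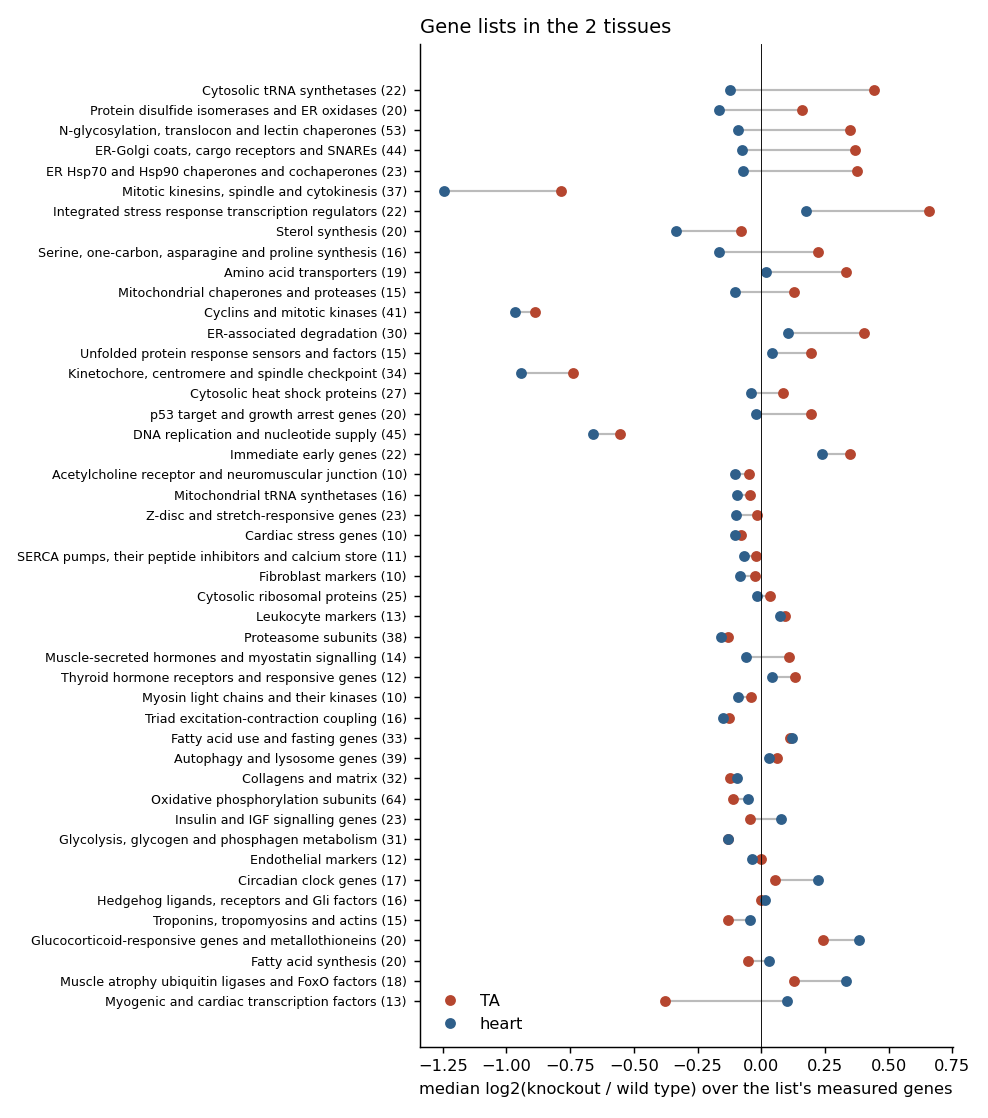
Each row is a gene list with at least 10 measured genes (number in brackets), and the x axis gives the median log2 ratio of knockout over wild type in TA (red) and heart (blue), ordered by the median difference. The ER, cytosolic tRNA synthetase, amino acid and integrated stress response lists have TA medians between 0.16 and 0.66, the 4 cell division lists lie at -0.55 or below in both tissues, and oxidative phosphorylation, proteasome and ribosome lists lie near 0 in both.

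Genes of the integrated stress response and of amino acid supply were often higher in TA. Fewer reached 1.5-fold in heart, though in both directions their share there was above that of all genes. Of the 79 measured genes of its lists, 25 (31.6%) were at least 1.5-fold higher in TA and 0 lower, against 4.21% and 4.27% of all genes. In heart 4 (5.06%) were higher and 5 (6.33%) lower, against 2.52% and 4.12% of all genes. Among its 22 transcription regulators, Ddit3, which encodes CHOP, had 2207 and 561.5 in TA (3.93-fold) and 750 and 671.5 in heart (1.12-fold), Atf3 log2 1.56 and 0.14, and Atf4 itself 8586 and 4795 in TA (1.79-fold) and 4287 and 3676 in heart (1.17-fold). Trib3, a pseudokinase induced by Atf4 and CHOP, had 1138 in knockout TA against a wild-type signal under the floor (at least 11.2-fold higher) and 267.5 and 140 in heart (1.91-fold). Its second probe set was also higher in TA (log2 3.03) and lower in heart (-0.33), so its heart direction depends on the probe set. Asns, asparagine synthetase, had 2554 and 318 in TA (8.04-fold) and 266 and 288 in heart (1.08-fold lower).

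A group of these enzymes went in opposite directions. Mthfd2, a mitochondrial folate enzyme, had 1468 and 257 in TA (5.72-fold higher) and 125 and 213 in heart (1.70-fold lower), and its second probe set gave log2 2.08 and -0.47. Psat1, of serine synthesis, had 3061 and 765 in TA and 381 and 587 in heart, a difference of log2 2.62 between the tissues. Phgdh, the first enzyme of that path, had 1206 and 790.5 in TA (1.53-fold higher) and 170 and 274 in heart (1.61-fold lower), and all 3 of its other probe sets had the same signs. Slc7a5, a carrier of large neutral amino acids, had 831 and 281 in TA (2.96-fold higher) and 229.5 and 375 in heart (1.63-fold lower). In each of these 4 genes knockout heart had the lowest signal of the 4 arrays and knockout TA the highest. Of the 16 measured genes of serine, one-carbon, asparagine and proline synthesis, 14 had a higher log2 ratio in TA than in heart, with medians of 0.22 and -0.17. Of 22 cytosolic tRNA synthetases, which load amino acids onto tRNA, 16 were above 0 in TA and 5 in heart (medians 0.44 and -0.12). Of all 10823 genes, 5323 and 5368 were above 0. The glycyl enzyme Gars had 5525 and 2985 in TA (log2 0.89) and 2107 and 2510 in heart (-0.25). Farsa, a subunit of the phenylalanyl enzyme, ran the other way, 388 and 425 in TA (-0.13) and 449 and 164 in heart (1.45). The 16 mitochondrial synthetases had medians of -0.05 and -0.09.

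The Atf4 element did not separate genes as the ER stress element did. The 2 searches were unlike, since the Atf4 element spans 8 bases and the ER stress element 19. A shorter motif matches more promoters by letters alone, so the lack of separation does not bear on Atf4 itself. Searched as TGATGNAA on either strand, the Atf4 element was present in 209 of the 8794 genes (2.38%), in 3.45% of all promoters (0.113% for the ER stress element), and in 11 of the 63 integrated stress response genes with a promoter (17.5%). Over the 209 genes, 3.83% were at least 1.5-fold higher in TA beside 4.26% of those without it, and the medians were -0.02 and -0.003. The compact ER stress element II (ATTGG, any 1 base, CCACG) was present in 10 of all promoters (0.0304%) and in 6 genes, of which 2 were at least 1.5-fold higher in TA and 0 in heart. Herpud1 and Asns, shown because they lie among the largest differences, hold such letters (capitals mark element II at 52 bases and the Atf4 element at 112 bases before the start of Herpud1, and the Atf4 element at 23 bases before that of Asns).
Herpud1 (chr8:94386179-94386428, plus strand): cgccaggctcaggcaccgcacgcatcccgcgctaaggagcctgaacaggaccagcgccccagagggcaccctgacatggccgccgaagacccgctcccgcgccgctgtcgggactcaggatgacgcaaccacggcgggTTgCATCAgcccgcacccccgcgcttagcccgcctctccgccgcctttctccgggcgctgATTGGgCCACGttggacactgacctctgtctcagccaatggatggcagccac
Asns (chr6:7693210-7693459, minus strand): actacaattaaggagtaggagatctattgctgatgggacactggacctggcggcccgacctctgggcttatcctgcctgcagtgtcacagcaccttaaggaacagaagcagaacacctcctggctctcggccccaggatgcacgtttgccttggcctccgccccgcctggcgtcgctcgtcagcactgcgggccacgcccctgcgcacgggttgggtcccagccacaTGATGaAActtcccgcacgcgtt

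Another 34 of the 70 genes higher in TA with heart near 0 were in no list, and further ones belonged to muscle lists. Several of the latter are abundant in heart. Atp2a2, the calcium pump of slow fibres and heart, had 13894 and 6408 in TA (2.17-fold) and 41250 and 38160 in heart (1.08-fold). Csrp3, a muscle LIM protein, had 8319 and 3811 in TA (2.18-fold) and 31262 and 30105 in heart (1.04-fold). Ankrd1, a stretch-responsive partner of titin, had 813 and 332 in TA (2.45-fold) and 19734 and 17851 in heart (1.11-fold). For all 3, the signal of knockout TA lay between those of wild-type TA and heart. Rrad, a small GTPase that restrains calcium channels, had 1118 and 435 in TA (2.57-fold) and 4693 and 4786 in heart. Sln, a peptide that inhibits the calcium pump, had log2 0.82 in TA and -0.07 in heart, short of 2-fold and so not 1 of the 70. Among growth arrest genes, Cdkn1a, which encodes p21, had 2708 and 1167 in TA (2.32-fold) and 856 and 938 in heart (1.09-fold lower). Eda2r, a receptor of the tumour necrosis factor family, had 1966 and 442 in TA (4.44-fold) and 311 and 382 in heart (1.23-fold lower). Fam174b, in no list, had 853 and 157.5 in TA (5.42-fold) and 3829 and 3901 in heart. N4bp2l1 had 592 and 108 in TA (5.47-fold) and 163 and 131.5 in heart (1.24-fold), and its second probe set gave log2 1.54 and 0.64. Fbxo32, a ubiquitin ligase of muscle wasting, had log2 1.92 and 0.40. It is not 1 of the 70 either, since its heart ratio was not near 0.

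Cell division genes were lower in both tissues. Of the 157 measured genes, 94 (59.9%) were at least 1.5-fold lower in TA and 116 (73.9%) in heart, 88 in both, against 4.27% and 4.12% of all genes; 1 was higher in TA and 0 in heart. In bulk tissue, fewer dividing cells and less of these transcripts per cell cannot be told apart. Mki67, the proliferation antigen Ki-67, had 860.5 and 2219 in TA (2.58-fold lower) and 929 and 2669 in heart (2.87-fold lower). Bub1, a kinase of the spindle checkpoint, had 134 and 394.5 in TA (2.95-fold lower) and 200 and 617 in heart (3.09-fold lower). Melk had 140 and 412 in TA and 105 and 380 in heart, 2.95-fold and 3.61-fold lower, and the cyclin Ccna2 508 and 1259 and 697.5 and 2001, 2.48-fold and 2.87-fold lower. In each of these genes both knockout signals lay below both wild-type signals. By list, DNA replication had medians of -0.55 in TA and -0.66 in heart, kinetochore genes -0.74 and -0.94, cyclins and mitotic kinases -0.89 and -0.97, and mitotic kinesins and spindle genes -0.79 and -1.25. Of the 157 genes, 112 had the lower log2 ratio in heart, and the median difference was 0.21 beside 0.0002 over all genes. Plk1, a mitotic kinase, was 1.18-fold lower in TA (157 and 185) and 2.89-fold lower in heart (131 and 380). Mcm2, of the replication helicase, was the exception that was higher, 1.52-fold in TA and 1.28-fold in heart.

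The cell cycle homology region (CHR element, TTTGAA on either strand), a promoter motif of mitotic genes, was present in 1105 of the 8794 genes (12.6%), in 40 of the 129 cell division genes with a promoter (31.0%) and in 34 of the 132 lower in both tissues (25.8%). Over the 1105 genes, 6.52% were at least 1.5-fold lower in TA and 6.15% in heart, beside 3.86% and 3.77% of the genes without it. Top2a, the topoisomerase of dividing cells, had 642 and 1525 in TA (2.38-fold lower) and 795 and 1784 in heart (2.24-fold lower). Its promoter and that of Mki67 are shown with the element in capitals.
Top2a (chr11:99024190-99024439, minus strand): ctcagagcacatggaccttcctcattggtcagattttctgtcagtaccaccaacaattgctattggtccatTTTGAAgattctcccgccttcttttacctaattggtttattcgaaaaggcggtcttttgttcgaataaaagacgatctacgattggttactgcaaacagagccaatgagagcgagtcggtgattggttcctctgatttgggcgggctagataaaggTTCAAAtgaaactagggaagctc
Mki67 (chr7:135716380-135716629, minus strand): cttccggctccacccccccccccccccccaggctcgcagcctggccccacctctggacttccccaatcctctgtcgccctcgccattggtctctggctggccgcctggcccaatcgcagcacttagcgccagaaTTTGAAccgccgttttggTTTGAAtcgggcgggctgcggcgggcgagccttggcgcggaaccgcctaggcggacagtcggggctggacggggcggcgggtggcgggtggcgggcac
Each holds 2 copies, at 179 and 23 bases before the start in Top2a and at 116 and 98 in Mki67. The share of promoters with CCAAT was 65.1% in cell division genes and 51.3% in ER genes, both above the 40.6% of all measured genes. The E2F element (TTTCCCGC) was present in 180 genes, of which 6.11% were 1.5-fold lower in TA and 7.78% in heart, beside 4.16% and 3.99% without it. The UPR element (TGACGTGG, 83 genes), the cAMP response element (TGACGTCA, 267), the E-box (CACGTG, 892), the element GTGGNAAA (351), the sterol response element (TCACNCCAC, 108) and the glucocorticoid response element (27) were searched in the same way. Over the genes with each of these 6, between 2.41% and 5.27% were 1.5-fold higher in TA and between 2.62% and 11.1% in heart. The lowest TA share was that of the UPR element (2 of 83 genes), beside 4.27% without it, and its heart share was 3.61% beside 2.59%. The highest TA share was that of the E-box, beside 4.14% without it. The 11.1% in heart were 3 of the 27 genes with the glucocorticoid element, beside 2.58% without it. Of those 27, 3 (11.1%) were also 1.5-fold lower in TA, beside 4.17% without it, and 0 lower in heart, with a median difference of log2 -0.29.

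The genes higher in both tissues were few, Trib3 and Dnajb9 among them. Of the 34, Uty was the 1 gene (0.00924%) that reached 2-fold in each (2.71-fold and 2.29-fold). Abca1, which exports cholesterol from cells, had 4396 and 2559 in TA (1.72-fold) and 5518 and 2745 in heart (2.01-fold). Acot1, a thioesterase of fatty acid oxidation, had 444.5 and 228 in TA (1.95-fold) and 3412 and 1674.5 in heart (2.04-fold). Mylip, a ubiquitin ligase of the LDL receptor, had 1785 and 1043 (1.71-fold) and 2231 and 906 (2.46-fold), and the clock gene Per1 526 and 285 (1.84-fold) and 748 and 397 (1.88-fold). Timp4, an inhibitor of matrix proteases, had 401 and 235 in TA (1.70-fold) and 1254 and 335.5 in heart (3.74-fold). A knockout signal above the wild type in each tissue was the condition for entering this group, so it is not a further result. Of the 20 genes of the glucocorticoid response list, 5 were at least 1.5-fold higher in TA and 5 in heart (against 4.21% and 2.52% of all genes), 1 was lower in TA and 0 in heart, with medians of 0.24 and 0.38, and 15 of 20 had the higher ratio in heart. Irs2, an adaptor of the insulin receptor, was 2.24-fold and 1.70-fold higher.

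On the heart's side the largest difference was Myh7, the slow myosin heavy chain. Its signal was 7354 in knockout and 886 in wild-type heart (8.30-fold higher), and 12035 and 12190.5 in TA (1.01-fold lower). The adult cardiac chain Myh6 did not follow: its heart signals were 49851 and 48296 (log2 0.05). Ms4a4d had 687 and 236 in heart (2.91-fold higher) and 346 and 428 in TA (1.24-fold lower), and Igfbp3, a carrier of insulin-like growth factors, 811 and 404 in heart (2.01-fold) and 1842 and 2006 in TA. Of the 16 genes higher in heart with TA near 0, 5 had at least 1 signal raised to the floor, and their median wild-type heart signal was 178, and 1 of the 16 was above 4 times the floor in that sample. Gata6, a cardiac transcription factor, had log2 0.50 in heart and -0.50 in TA. Of the 18 genes lower in heart with TA near 0, 3 were cell division genes (16.7%), as were 157 of all 10823 genes. Casq1, skeletal calsequestrin, had 207 and 565.5 in heart (2.73-fold lower) against 24336 and 29866 in TA. Myl1, a skeletal myosin light chain, had 1062 and 2568 in heart (2.42-fold lower) against 37175 and 40793 in TA, and Car3, carbonic anhydrase 3, 182 and 394.5 (2.17-fold lower) against 34123 and 36755. For these 3 genes the heart signals were far below those of TA, and a part for other tissue in the heart RNA was not tested. Of the 16 skeletal fibre markers, 12 were below the floor on both heart arrays. The other 4 were Casq1, Acta1 (1849 in knockout and 2714 in wild-type heart), Ckm (22594 and 20635) and Tnni2 (132 and 124.8), and the summed heart signal of the 16 was 1.03 times the wild type. Car3 is also 1 of 13 genes of the adipocyte list on the array, whose summed heart signal was 0.979 times the wild type. Of that list, the brown fat gene Ucp1 had 30.2 in knockout and 328 in wild-type heart, and Adipoq was below the floor on both. Other members went both ways. Cidea (1878 in knockout and 2216 in wild-type heart) and Cox7a1 (14951 and 18033) were lower. Pparg (229 and 89), Pnpla2 (2203 and 1657), Lipe (386 and 309) and Fabp4 (35613 and 33584) were higher.

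Lower in TA with heart near 0 were 17 genes, 15 of them in no list. Thrsp, a regulator of fatty acid synthesis, had 762 and 2267 in TA (2.97-fold lower) and 244 and 237 in heart. Ky, a muscle protein of the Z-disc, had 1184 and 3881 in TA (3.28-fold lower) and 472 and 541 in heart (1.15-fold lower). Prkag3, a subunit of the energy sensor AMPK typical of fast fibres, had 1254 and 3224 in TA (2.57-fold lower) and 156 and 184 in heart, and Slc37a4, the glucose-6-phosphate carrier of the ER, 1662 and 4251 in TA (2.56-fold lower) and 822 and 754 in heart. Wild-type TA had the highest of the 4 signals in all 4 genes. Of the 13 measured muscle transcription factors, 10 had the lower ratio in TA (medians -0.38 and 0.10), Sox6 at -0.62 and 0.34, and 1 reached 1.5-fold.

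Opposite responses were rare. Besides the 4 amino acid genes and Sdf2l1, the 15 genes higher in TA and lower in heart included Nme1, a nucleoside diphosphate kinase, with 3252 and 1775 in TA (1.83-fold higher) and 1249 and 2317 in heart (1.86-fold lower), and Srebf2, the regulator of sterol synthesis, with 270 and 166 in TA and 131 and 253 in heart. Their second probe sets did not bear out the TA direction, with log2 ratios in TA of -0.53 for Nme1 and -0.60 for Srebf2. Serpinb6e (219 and 133 in TA, 250 and 517.5 in heart) and the kallikrein Klk1 (240 and 133, 117 and 230) were of the same kind. Mettl7a2 was the 1 gene (0.00924%) that reached 2-fold each way, 108 and 276 in TA and 327 and 136 in heart. Its knockout TA signal lay just above the floor of 101.3. Like Klk1 and Serpinb6e, it had 1 measured probe set, of a type with shared or ambiguous probes, so no second probe set could be compared. Kif26a, an atypical kinesin, had 248.9 and 725 in TA (2.91-fold lower) and 1192 and 754 in heart (1.58-fold higher). Of the 25 opposite genes, 14 were among the dimmest 2706 genes (mean signal up to 329.2).

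In several lists the medians of the tissues lay close together. The 64 oxidative phosphorylation subunits held 0 genes at 1.5-fold in either tissue, with medians of -0.11 in TA and -0.05 in heart. Of 38 proteasome subunits 1 was lower in each tissue and 0 higher (medians -0.13 and -0.16), and of 25 ribosomal proteins 1 was higher in TA. The 16 genes of hedgehog signalling had medians of -0.002 and 0.01, Hhatl being the 1 at 1.5-fold. Sterol synthesis genes differed more between the tissues, with a median difference of log2 0.31 and 14 of 20 above 0. They were lower in heart in 6 of 20 (median -0.33) and in TA in 4 of 20 with 2 higher (median -0.08): Sqle, squalene epoxidase, was 2.22-fold lower in TA and 2.84-fold in heart, Idi1 1.37-fold and 2.26-fold lower, and Mvd 2.39-fold higher in TA and 1.18-fold in heart.

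With 1 array per group, the one repeat on the array is a gene's second probe set, which shares the RNA and was filtered in the same way. Of the 32 genes higher in TA with heart near 0 that had one, 26 were at least 1.5-fold higher in TA by it and 19 of those were also near 0 in heart. Of 64 genes lower in both, 35 reached 1.5-fold lower in each tissue by it. Of 5 genes higher in heart, 2 reached 1.5-fold by it, of 2 lower in heart 0, and of the 8 opposite genes 0 reached 1.5-fold in both directions. Over 4806 genes the difference between tissues moved between probe sets by a median of 0.24 on the log2 scale, and by 0.88 or more in 1 of 20. The central 95% of differences ran from -0.93 to 1.003 in the dimmest 2706 genes and from -0.57 to 0.70 in the brightest 2706.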

How the data were processed

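Total RNA of TA and heart was hybridised to Affymetrix mouse arrays, 1 array of pooled RNA per group. The signal intensities were deposited by the authors after MAS5 processing, which the submitters' processing notes name. For the MAS5 version, scaling target and detection calls: not given in the sources used here. Trimmed means (2% off each end) ran from 496.35 to 496.83, so the arrays had been scaled alike, and no further scaling was applied. Of 45037 probe sets, 34945 carry 1 gene symbol in the platform annotation, 932 several and 9160 none. Probe sets at or above the median signal of 101.3 on at least 1 array of each tissue were kept; the values just inside and outside were 101.3 and 101.2. The probe set with the highest mean signal stood for its gene. Signals under the floor were raised to it (654 genes), so such a ratio is a bound. All log2 ratios and folds were computed here (Python 3.11.15, numpy 2.4.6, pandas 2.3.3), and the steps were tested on simulated arrays. With 1 array per group there is no replicate error, and the number of arrays limits the precision.

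The genes and 55 lists were chosen with earlier results of these data known. Named were Hhatl, the 15 genes with the largest difference each way, the 10 with the largest shared response, up to 15 opposite genes and up to 4 members per list; other genes were named after their values were seen, as were the promoters printed. Lists share genes. In all 12 motifs were searched, on both strands. Alternatives to the floor, scaling, probe set choice and fold limits were run.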

Additional observations from a re-analysis of the deposited data

Results flagged for a closer look

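In 16 of the genes named by rank, the knockout's single TA array and single heart array lay at least 1.5-fold from the wild type in opposite directions. Phgdh, named as a list member and not counted here, did so as well (1.53-fold higher in TA, 1.61-fold lower in heart). The difference between the tissues was not tested, since each group has 1 array. As the log2 ratio in TA minus that in heart, the difference was 4.92 for Sdf2l1, 3.28 for Mthfd2, 2.62 for Psat1 and 2.27 for Slc7a5, the genes of ER protein handling and amino acid supply. It was 1.83 for Klk1, 1.78 for Serpinb6e, 1.77 for Nme1, 1.65 for Srebf2, 1.28 for Scamp5 and 1.26 for Clec16a. With the heart above TA it was -2.61 for Mettl7a2, -2.20 for Kif26a, -1.73 for Susd5, -1.37 for Gps2, -1.31 for Tmem268 and -1.28 for Paqr9. The heart ratio of Scamp5 is a bound. Second probe sets of Paqr9 gave log2 ratios of -0.07 in TA and 0.02 in heart, and those of Tmem268 0.39 and 0.01.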

How the results depend on the processing

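No spread between replicates exists, so a value was counted as moved if it shifted by over 1.5-fold. No paired analysis was possible because each group has 1 array, and no array could be left out. Of 112 comparisons of gene counts, 80 stayed within that limit, as did all 100 medians of the families and motif sets and all 485 list medians, of which 23 changed sign. Many of these medians are themselves smaller than the limit (log2 0.58), so staying within it says little about them. Over the alternatives the median difference ran from 0.33 to 0.40 for ER protein handling and from 0.33 to 0.38 for the integrated stress response. The cell division median in TA ran from -0.77 to -0.43. The counts depended on the floor. With the 25th percentile as floor they were 144 (higher in TA, heart near 0), 100 (lower in TA), 87 (higher in heart), 132 (lower in heart), 167 (both higher), 341 (both lower), 160 and 124 (opposite, TA or heart higher), and 735 and 571 for a 2-fold difference with TA or heart above. With the 75th percentile they were 34, 3, 1, 4, 14, 40, 1, 3, 64 and 15 in that order. The share of ER and integrated stress response genes among those higher in TA with heart near 0 was then 20.8% and 61.8%. The genes opposite with heart higher numbered 6 after quantile normalization of the 4 arrays, and 6 without probe sets of shared or ambiguous probes. Of 542 comparisons of named genes' differences, 15 (12 genes) moved, 1 reversed and 3 changed sign. Without those probe sets Tmem268 turned to 0.38. The moves came with the 75th percentile floor (Fam174b 0.88, Kif26a -1.28, Strbp -0.81), or with other probe sets of the gene: as medians over probe sets Dnajc3 was 1.21, N4bp2l1 1.52, Hmmr 0.80, Nme1 1.08, Paqr9 -0.68, Srebf2 0.56, Strbp -0.33 and Tmem268 -0.47, and with the set of highest low signals Dnajc3 was 1.07, Mthfd2 2.54, N4bp2l1 0.90 and Trib3 3.36. With the other tissue allowed up to 1.5-fold, 26 genes were lower in TA and 38 lower in heart. Calls at 1.5-fold gave 314 higher and 193 lower in TA, 156 higher and 156 lower in heart, and calls at 3-fold 19, 1, 1 and 0. Choosing the brightest probe set before applying the floor, an alternative chosen after seeing the data, gave identical counts. The cause of these shifts was not tested.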
